A study of Bos taurus with 28 samples.

Results

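Transcripts of 3 genes for receptors of peptide hormones were followed in the uterus of 28 heifers: EDNRB (ENSBTAG00000005299), the type B endothelin receptor, SSTR1 (ENSBTAG00000006582), a somatostatin receptor, and CCKAR (ENSBTAG00000004988), the type A cholecystokinin receptor. They are 3 of the 24596 genes listed for each heifer, and all 3 passed the filter on low counts in each pair of treatments and over all 28 heifers. The genes were found by the Ensembl IDs that the study pairs with their names, in rows that the study sorted by its own p-value for LF against CTRL heifers, and they were picked with their differences from CTRL heifers known. Differences of the 3 receptor genes from CTRL heifers are therefore given as a description, with no test.

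All 3 proteins span the cell membrane and signal through G proteins. EDNRB binds the endothelins, peptides that act on the tone of blood vessels. In endothelial cells it is known to release relaxing factors, and it also clears endothelin from the circulation. SSTR1 couples to inhibitory G proteins and lowers cyclic AMP when somatostatin binds, an action known for restraining hormone release. CCKAR couples to G proteins that raise calcium inside the cell, and it is best known for the contraction of gallbladder smooth muscle and the secretion of pancreatic enzymes after a meal.

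The HF treatment held 10 heifers inseminated with frozen and thawed semen of 5 bulls with high field fertility, and the LF treatment held 10 heifers inseminated with semen of 5 bulls with low field fertility, with 2 heifers per bull in both. The CTRL treatment held 8 heifers that were not inseminated. The estrous cycles of all heifers were synchronized with an intravaginal progesterone device, gonadotrophin-releasing hormone and prostaglandin F2 alpha, and the inseminated heifers were slaughtered 12 h after insemination. One biopsy per heifer was taken after death from the horn on the side of ovulation, and by the methods of the study the endometrium was cut away from the muscle layer. Heifers are named by treatment and number, and numbers up to 5 (inseminated) or 4 (CTRL) belong to study replicate 1 and higher numbers to study replicate 2. The labels call the heifers Holstein-Friesian, whereas the study's list of animals has them as cross-breds, and 4 HF, 3 LF and 4 CTRL heifers are listed there as Limousin crosses. Charolais crosses were 4 HF, 5 LF and 1 CTRL heifers. The others were 2 Belgian blue crosses in HF, 1 Aberdeen angus and 1 Simmental cross each in LF and in CTRL, and 1 Saler cross in CTRL. Breed was thus not even between treatments.

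Each library held between 14872812 and 25633259 counts, the median being 19794372 in HF, 18965105 in LF and 19149694 in CTRL heifers. Levels are counts per 1000000 counts of the library (CPM), scaled to a common library size by TMM, a normalization that takes most genes as unchanged. As gene lengths were not used, levels are compared between heifers and not between genes. ACTA2, the actin of smooth muscle, was present in all 28 heifers at 248 to 7077 CPM. Of 16 listed smooth muscle markers 8 had a name among the IDs, none of the 8 was at 0 in any heifer, and their summed level was 1298 to 9310 CPM in HF, 1026 to 9383 CPM in LF and 2039 to 14537 CPM in CTRL heifers. The epithelial genes KRT8 and ESRP1, 2 named of 10, summed to 117 to 282 CPM in HF, 185 to 298 CPM in LF and 98.6 to 265 CPM in CTRL heifers. VIM, the 1 named of 10 stromal markers, was at 2120 to 3071 CPM in HF, 1568 to 3173 CPM in LF and 1351 to 2471 CPM in CTRL heifers. MCAM, the 1 named of 7 pericyte markers, was at 62.4 to 150 CPM in HF, 76.0 to 161 CPM in LF and 84.6 to 271 CPM in CTRL heifers. None of 12 endothelial, 10 leukocyte and 6 Schwann cell markers had a name, so these cells could not be checked.

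EDNRB was lower in HF than in CTRL heifers, with LF heifers between them. In HF heifers it ran from 3.13 CPM in HF7 over a median of 6.94 CPM to 13.5 CPM in HF2. In LF heifers it ran from 3.92 CPM in LF4 over a median of 10.8 CPM to 36.4 CPM in LF2, and in CTRL heifers from 9.76 CPM in CTRL3 over a median of 14.6 CPM to 73.7 CPM in CTRL5. Each of the 10 HF heifers had less than the CTRL median, and 7 of them had less than any CTRL heifer. Among the LF heifers, 8 had less than the CTRL median and 4 less than any CTRL heifer. The share of all genes with such counts of heifers was not computed, here or for SSTR1 and CCKAR below. The receptors were picked with their differences from CTRL heifers known, so such counts are no independent result. The means were 7.79 ± 3.0 CPM in HF (SD, n = 10), 11.9 ± 9.35 CPM in LF (SD, n = 10) and 21.5 ± 21.3 CPM in CTRL heifers (SD, n = 8).

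A pair of heifers stood apart in EDNRB. CTRL5 was 3.69 times the next CTRL heifer, and LF2 was 2.49 times the next LF heifer. The log2 fold change (log2FC) of HF against CTRL was −1.46 (standard error 0.37), or 2.75-fold lower, and without CTRL5 it was −0.84 (standard error 0.23). For LF against CTRL it was −0.85 (standard error 0.44), and without CTRL5 it was −0.23. Without both CTRL5 and LF2, a choice made after seeing the data, the LF difference was −0.60 (standard error 0.27). The HF difference also varied with the study replicate, being −0.50 (standard error 0.30) in replicate 1 and −2.29 (standard error 0.53) in replicate 2, the replicate of CTRL5. The LF difference was −0.10 in replicate 1 and −1.39 in replicate 2. A change of the treatment differences with study replicate was tested directly as an interaction and did not pass (edgeR p = 0.0763, adjusted p = 1.0), beside 0 genes (0%) called and 1.73% at an unadjusted p under 0.05.

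SSTR1 had few counts, from 4 to 28 in HF, 4 to 34 in LF and 8 to 83 in CTRL heifers, so the level of a single heifer is imprecise. It ran from 0.195 CPM in HF4 over a median of 0.475 CPM to 1.13 CPM in HF2. In LF heifers it ran from 0.227 CPM in LF7 over a median of 0.713 CPM to 1.87 CPM in LF8. In CTRL heifers it ran from 0.367 CPM in CTRL2 over a median of 1.07 CPM to 4.97 CPM in CTRL4. The treatments overlapped, although 9 of 10 HF and 8 of 10 LF heifers lay below the CTRL median, counts for which no share over all genes was computed. The CTRL heifers were spread widely, since CTRL4, CTRL5 (3.23 CPM) and CTRL8 (2.28 CPM) stood above every HF and LF heifer.

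The mean level of SSTR1 was 0.536 ± 0.320 CPM in HF (SD, n = 10), 0.856 ± 0.497 CPM in LF (SD, n = 10) and 1.80 ± 1.6 CPM in CTRL heifers (SD, n = 8). Its log2FC was −1.72 for HF against CTRL (standard error 0.47), or 3.30-fold lower, and −1.07 for LF against CTRL (standard error 0.47). Without CTRL4 the difference was −1.31 for HF and −0.65 for LF. The HF difference was close in the study replicates, at −1.74 (standard error 0.77) in replicate 1 and −1.70 (standard error 0.55) in replicate 2. The LF difference was −1.36 in replicate 1 and −0.82 in replicate 2.

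CCKAR varied far more among heifers of one treatment than the other receptor genes did. It ran from 0.0977 CPM (2 counts) in HF7 over a median of 1.34 CPM to 13.9 CPM (273 counts) in HF3. In LF heifers it ran from 0.0449 CPM (1 count) in LF1 over a median of 0.470 CPM to 8.95 CPM (153 counts) in LF6. In CTRL heifers it ran from 0.183 CPM (4 counts) in CTRL2 over a median of 2.50 CPM to 30.7 CPM (457 counts) in CTRL7. CTRL1 and CTRL6, at 28.2 and 27.0 CPM, were close to CTRL7, and these 3 heifers stood above every HF and LF heifer. At the other end, 4 of 10 HF, 5 of 10 LF and 4 of 8 CTRL heifers had 10 counts or fewer, so the treatments overlapped over most of the range.

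The means of CCKAR were 3.57 ± 5.00 CPM in HF (SD, n = 10), 1.66 ± 2.76 CPM in LF (SD, n = 10) and 11.5 ± 14.4 CPM in CTRL heifers (SD, n = 8), with an SD above the mean in each. The log2FC was −1.68 for HF against CTRL (standard error 1.06) and −2.79 for LF against CTRL (standard error 1.10). In the study replicates the HF difference was −0.43 (standard error 1.43) in replicate 1 and −3.89 (standard error 1.30) in replicate 2. The LF difference was −3.73 in replicate 1 and −2.42 in replicate 2. The interaction of treatment with study replicate did not pass for CCKAR (edgeR p = 0.0813, adjusted p = 1.0) or for SSTR1 (p = 0.798, adjusted p = 1.0).

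**Figure D1:**
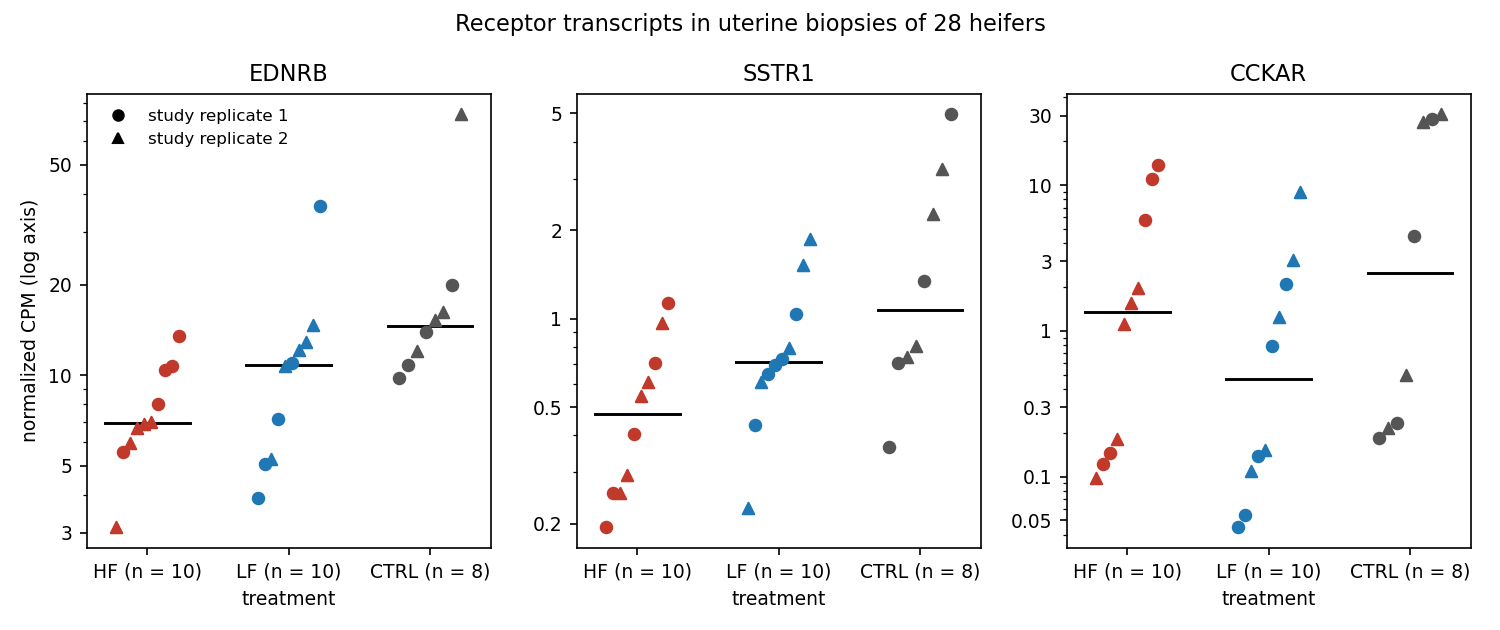
Normalized CPM on a log y axis of EDNRB, SSTR1 and CCKAR in HF (n = 10), LF (n = 10) and CTRL (n = 8) heifers on the x axis. Each point is a heifer, circles and triangles are study replicates 1 and 2, and the bar is the median; CTRL5 (73.7 CPM) and LF2 (36.4 CPM) stand apart in EDNRB, and CCKAR spans 0.0449 to 30.7 CPM.

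The background of these differences was wide for HF against CTRL and narrow for LF against CTRL. Of 14885 genes tested between HF and CTRL, edgeR's quasi-likelihood test called 0 (0%) at an adjusted p under 0.05 and had 16.0% at an unadjusted p under 0.05, with 8.27% lower in HF. DESeq2 called 2.12% of all genes there, 1.07% lower in HF. Of 14849 genes tested between LF and CTRL, edgeR called 0 and had 5.65% at an unadjusted p under 0.05, with 2.71% lower in LF, while DESeq2 called 2 genes (0.0104%). These shares describe all genes, and no call is given for the 3 receptors in either contrast.

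The comparison of HF with LF heifers sets semen of bulls with high field fertility against semen of bulls with low field fertility. This comparison did not serve in picking the genes, although it shares its heifers with the comparisons that did. Its fits took the 10 heifers of a treatment as independent, although they stand for 5 bulls with 2 heifers each. Standard errors, intervals and p-values are thus those of heifers, and may be too small for a statement about bulls. With the heifers of a bull summed, each receptor kept its direction for HF against LF. None of the 3 receptors was called, against 0 (0%) of 14793 genes in edgeR and 27 (0.162%) in DESeq2, with 7.92% of genes at an unadjusted p under 0.05 in edgeR. The order of the levels was HF below LF below CTRL for EDNRB and SSTR1, and LF below HF below CTRL for CCKAR, by means and medians alike. HF and LF, neighbours in each of these orders, did not differ beyond the spread between heifers.

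EDNRB had a log2FC of −0.62 for HF against LF (standard error 0.34, 95% interval −1.33 to 0.08, edgeR adjusted p = 0.670). Without LF2 it was −0.26. SSTR1 had a log2FC of −0.67 (standard error 0.37, 95% interval −1.43 to 0.10, edgeR adjusted p = 0.674). For CCKAR it was 1.09 (standard error 0.95, 95% interval −0.89 to 3.07, edgeR adjusted p = 0.833). The intervals of EDNRB and SSTR1 thus reach past a 2-fold lower level in HF heifers, and the interval of CCKAR leaves its direction unsettled. In study replicate 1 CCKAR was higher in HF than in LF heifers (log2FC 3.29, standard error 1.30), whereas in study replicate 2 it was lower (−1.47, standard error 1.08), and neither value passed the test within its replicate (edgeR adjusted p = 0.636 and 1.0).

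**Figure D2:**
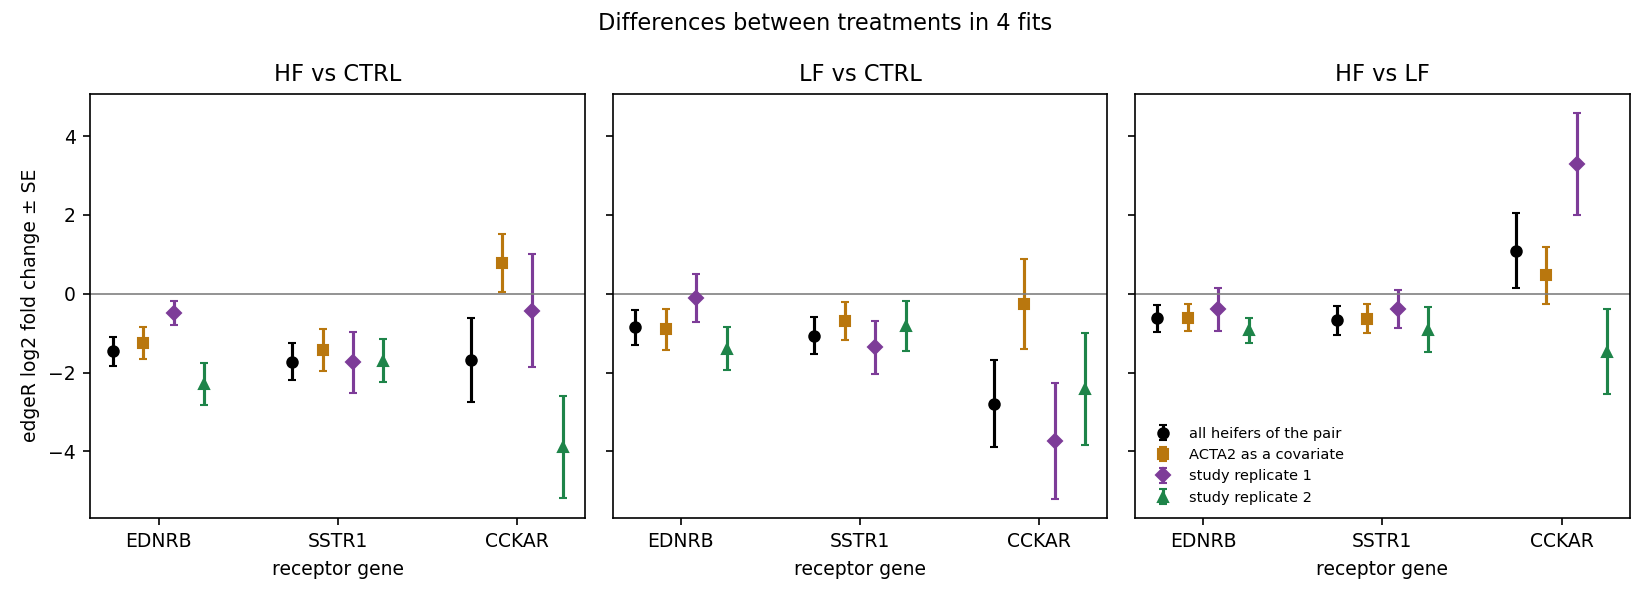
The edgeR log2 fold change (y axis) of EDNRB, SSTR1 and CCKAR (x axis) for HF against CTRL, LF against CTRL and HF against LF, with all heifers of the pair, with ACTA2 as a covariate, and within each study replicate. Points are estimates and bars are 1 standard error; SSTR1 stays below 0 in all panels, whereas the HF and CTRL difference of CCKAR is −1.68 without and 0.78 with ACTA2 as a covariate.

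ACTA2 was set beside the receptors because the biopsies differed in smooth muscle transcripts. It ran from 296 CPM in HF4 over a median of 727 CPM to 5037 CPM in HF5, from 248 CPM in LF3 over a median of 1447 CPM to 3182 CPM in LF10, and from 466 CPM in CTRL3 over a median of 3566 CPM to 7077 CPM in CTRL4. The log2FC of ACTA2 was −1.10 for HF against CTRL (standard error 0.64, edgeR adjusted p = 0.407), −1.12 for LF against CTRL (standard error 0.63, adjusted p = 0.874) and 0.01 for HF against LF (standard error 0.61, adjusted p = 0.999). The treatments overlapped in ACTA2, and none of these differences passed the test. All 8 named smooth muscle markers had a log2FC below 0 for HF and for LF against CTRL. Their median was −1.11 for HF (−0.02 over all genes tested) and −1.19 for LF (0.01 over all genes tested). In each, 4 of the 8 had an edgeR unadjusted p under 0.05, although edgeR called 0 after adjustment. Over all genes the share at that p was 16.0% for HF and 5.65% for LF. The difference in shares was not tested, and named genes lean towards small p-values of the study for LF against CTRL. The largest marker difference was that of MYOCD for HF against CTRL, at −2.28 (standard error 0.78, edgeR adjusted p = 0.187). MCAM was at −0.45 for HF (standard error 0.21) and −0.40 for LF (standard error 0.21) against CTRL. VIM was at 0.40 for HF (standard error 0.12, edgeR unadjusted p = 0.00266, adjusted p = 0.158) and 0.28 for LF (standard error 0.16) against CTRL. Of the epithelial genes, KRT8 was at −0.52 for HF against LF (standard error 0.15, edgeR unadjusted p = 0.0027, adjusted p = 0.450) and ESRP1 at −0.32 (standard error 0.14, unadjusted p = 0.0273, adjusted p = 0.571). Against CTRL, KRT8 was at 0.08 for HF (standard error 0.22) and 0.58 for LF (standard error 0.21, edgeR unadjusted p = 0.0134, adjusted p = 0.874). ESRP1 was at −0.01 for HF (standard error 0.15) and 0.30 for LF (standard error 0.12, edgeR unadjusted p = 0.0165, adjusted p = 0.874) against CTRL. These marker values stand beside the lower EDNRB, SSTR1 and CCKAR, and apart from the fits with ACTA2 their part in the receptor differences was not tested. In a bulk biopsy, fewer cells of a type and less RNA per cell cannot be told apart.

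CCKAR rose with ACTA2 across heifers, and EDNRB and SSTR1 were not called. The slope was fitted with treatment in the model, as the log2 change of a gene for each log2 unit of ACTA2. It was 1.45 for CCKAR (standard error 0.25, edgeR adjusted p = 2.54e-04), so that a heifer with 2-fold more ACTA2 had 2.72-fold more CCKAR on average. It was 0.20 for SSTR1 (standard error 0.12, adjusted p = 0.240) and 0.02 for EDNRB (standard error 0.11, adjusted p = 0.930). Of 15163 genes tested, 1712 (11.3%) were called, 7.84% with a positive slope, so a gene that rose with ACTA2 was no rarity. Leaving out each heifer in turn gave slopes of 1.35 to 1.6 for CCKAR, called every time (adjusted p 4.82e-05 to 0.00104). With the mean of the smooth muscle markers in place of ACTA2 the slope was 2.16 (edgeR adjusted p = 7.52e-07).

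The correlation of log2 CPM over the 28 heifers, with treatment means subtracted, was computed for 6 relations. For CCKAR with ACTA2, Pearson's r was 0.716 (permutation p = 1.3e-04, adjusted p = 7.8e-04) and Spearman's rho was 0.660 (permutation p = 2.6e-04, adjusted p = 0.00156), and r was 0.672 without HF5 and CTRL3, the heifers farthest from the median of ACTA2. For SSTR1 with ACTA2, r was 0.262 (permutation p = 0.202, adjusted p = 0.404) and rho was 0.272 (permutation p = 0.180, adjusted p = 0.270), with r at 0.248 without those heifers. For EDNRB with ACTA2, r was 0.148 (permutation p = 0.486, adjusted p = 0.729) and rho was 0.276 (permutation p = 0.172, adjusted p = 0.270), with r at 0.059 without them. All values of a heifer come from one library and share its depth and scaling.

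Within treatments, the relation of CCKAR to ACTA2 was close in HF heifers (r = 0.894, permutation p = 8.1e-04, n = 10) and in CTRL heifers (r = 0.857, exact permutation p = 0.0163, n = 8). In LF heifers r was 0.394 (permutation p = 0.251, n = 10). LF1 had 3102 CPM of ACTA2 with 1 count of CCKAR, and LF8 had 2075 CPM with 2 counts. CTRL5, the heifer with the highest EDNRB, likewise had 2812 CPM of ACTA2 and 9 counts of CCKAR. A slope that differs between treatments was tested directly and did not pass (edgeR p = 0.138 for CCKAR, 0.366 for EDNRB and 0.527 for SSTR1, each adjusted p = 1.0), beside 0 genes (0%) called and 0.910% at an unadjusted p under 0.05, so the weaker relation in LF heifers is not shown to differ from the others.

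With ACTA2 as a covariate, the differences between treatments moved for CCKAR and little for EDNRB. The CCKAR difference of HF against CTRL was 0.78 (standard error 0.74) in place of −1.68, and that of LF against CTRL was −0.25 (standard error 1.14) in place of −2.79. EDNRB was at −1.26 (standard error 0.40) for HF and −0.90 (standard error 0.53) for LF against CTRL. SSTR1 was at −1.43 (standard error 0.53) for HF and −0.69 (standard error 0.48) for LF. ACTA2 thus moved with the treatment differences of CCKAR, and its part in them was not tested beyond this fit.

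**Figure D3:**
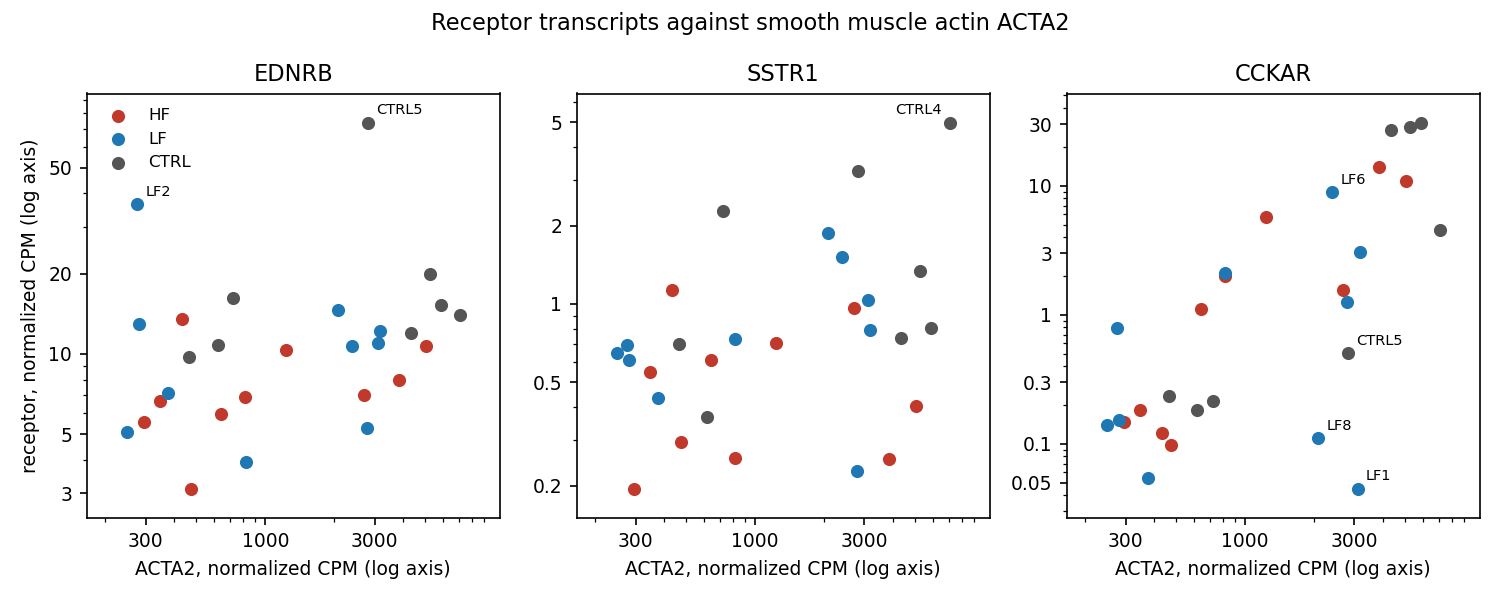
Normalized CPM of EDNRB, SSTR1 and CCKAR (log y axes) against normalized CPM of ACTA2 (log x axis), 1 point per heifer, by treatment. CCKAR climbs with ACTA2 except in heifers such as LF1 (1 count at 3102 CPM of ACTA2), LF8 and CTRL5, whereas EDNRB is highest in CTRL5 and LF2 at 2812 and 275 CPM of ACTA2.

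EDNRB and SSTR1 moved together across heifers, and no relation of either with CCKAR passed the test. With treatment means subtracted, r of EDNRB with SSTR1 was 0.474 (permutation p = 0.0161, adjusted p = 0.0484) and rho was 0.560 (permutation p = 0.00253, adjusted p = 0.00759), and r was 0.544 without CTRL4 and CTRL2, the heifers farthest from the median of SSTR1. Within treatments r was 0.519 in HF heifers (permutation p = 0.124, n = 10), 0.379 in LF heifers (permutation p = 0.278, n = 10) and 0.555 in CTRL heifers (exact permutation p = 0.142, n = 8). The relation was positive in each treatment and passed the test in none of them alone. For CCKAR, r was 0.061 with EDNRB (permutation p = 0.784, adjusted p = 0.941) and −0.015 with SSTR1 (permutation p = 0.947, adjusted p = 0.947), with rho at 0.169 (permutation p = 0.390, adjusted p = 0.468) and 0.034 (permutation p = 0.879, adjusted p = 0.879). Without LF6 and CTRL7, the heifers farthest from the median of CCKAR, r was 0.068 with EDNRB and −0.042 with SSTR1.

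The partners of the receptors could be followed only in part. Of 8 genes of the endothelin system, only EDN1 and EDNRB had a name among the IDs. EDN1, which encodes the ligand endothelin-1, was at 16.9 ± 4.36 CPM in HF (SD, n = 10), 16.1 ± 4.69 CPM in LF (SD, n = 10) and 21.2 ± 5.94 CPM in CTRL heifers (SD, n = 8). Its log2FC was −0.33 for HF against CTRL (standard error 0.18, edgeR adjusted p = 0.381), −0.39 for LF against CTRL (standard error 0.19, adjusted p = 0.874) and 0.05 for HF against LF (standard error 0.17, adjusted p = 0.985). Its slope on ACTA2 was 0.09 (standard error 0.05, adjusted p = 0.179). The highest heifer was at 2.38 times the lowest in HF, 2.30 times in LF and 2.13 times in CTRL for EDN1, and at 4.33 times in HF, 9.29 times in LF and 7.55 times in CTRL for EDNRB. For EDNRB the ratio was 3.74 in LF without LF2 and 2.05 in CTRL without CTRL5, the last no wider than that of EDN1. EDN1 was not called in any of these fits. Of 7 genes of the somatostatin system and 4 of the cholecystokinin and gastrin system, only SSTR1 and CCKAR had a name.

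Among 66 other receptors of peptide hormones 5 had a name and 4 were tested. In HF against CTRL, LF against CTRL and HF against LF, edgeR called 0 of the 4, with an unadjusted p under 0.05 for 0 of them in HF against CTRL (16.0% of all genes), 2 in LF against CTRL (5.65%) and 1 in HF against LF (7.92%). Named genes lean towards small p-values of the study for LF against CTRL, so the share over all genes is no like background for that pair. For a slope on ACTA2 edgeR also called 0 of the 4, beside 11.3% of all genes, with 1 (TACR3) at an unadjusted p under 0.05. RXFP1, the receptor of relaxin, was at 5.37 ± 5.60 CPM in HF (SD, n = 10), 1.80 ± 1.33 CPM in LF (SD, n = 10) and 8.45 ± 8.93 CPM in CTRL heifers (SD, n = 8). Its highest level, 27.0 CPM, was in CTRL5, the heifer highest in EDNRB. The log2FC of RXFP1 was −0.65 for HF against CTRL (standard error 0.73, edgeR adjusted p = 0.689), −2.22 for LF against CTRL (standard error 0.67, adjusted p = 0.874) and 1.56 for HF against LF (standard error 0.60, adjusted p = 0.510). AGTR1, a receptor of angiotensin II, was at 12.9 ± 3.16 CPM in HF, 10.5 ± 4.37 CPM in LF and 17.7 ± 9.46 CPM in CTRL heifers. TACR3, the receptor of neurokinin B, was at 17.6 ± 8.50 CPM in HF, 18.5 ± 8.50 CPM in LF and 12.9 ± 4.27 CPM in CTRL heifers. Their slopes on ACTA2 were −0.01 for AGTR1 (standard error 0.08) and −0.19 for TACR3 (standard error 0.08). Of the 7 peptide receptors tested, 1 (CCKAR) was called for this slope. That is near the 11.3% of all genes, so the count is no result about these receptors. The median log2FC of the 4 receptors was −0.00 for HF against CTRL (−0.02 over all genes tested) and −0.11 for LF against CTRL (0.01 over all genes tested).

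Some genes that act behind such receptors inside the cell rose with ACTA2. Of 29 listed genes of G protein signalling 10 had a name, and 5 of the 10 had a positive slope on ACTA2 at an edgeR adjusted p under 0.05, beside 7.84% of all genes, while none had a negative one. The share was not tested, and named genes lean towards small p-values of the study for LF against CTRL. The 5 were RGS17 (slope 1.31, standard error 0.19, adjusted p = 1.54e-05) and RGS2 (0.80, standard error 0.14, adjusted p = 2.16e-04), which both shorten the signal of G proteins, and the G protein alpha subunits GNA14 (0.48, standard error 0.09), GNAO1 (0.39, standard error 0.09) and GNAZ (0.18, standard error 0.06, adjusted p = 0.0468). RGS17 had 10 counts or fewer in 20 of the 28 heifers. It did not pass the filter on low counts in any pair of treatments. The median slope of the 10 genes was 0.15, beside −0.01 over all genes tested. Between treatments edgeR called 0 of the 9 tested in each pair, with an unadjusted p under 0.05 for 1 in HF against CTRL (16.0% of all genes), 3 in LF against CTRL (5.65%) and 1 in HF against LF (7.92%). The 9 had a median log2FC of −0.46 for HF against CTRL, −0.68 for LF against CTRL and 0.11 for HF against LF. GNAZ, whose product inhibits adenylyl cyclase as that of SSTR1's partners does, was at 2.93 ± 1.03 CPM in HF (SD, n = 10), 3.51 ± 0.952 CPM in LF (SD, n = 10) and 5.63 ± 2.16 CPM in CTRL heifers (SD, n = 8). All 20 inseminated heifers were below the CTRL median, but the treatments overlapped. Only 1 HF and 0 LF heifers were below CTRL2, the lowest CTRL heifer at 1.79 CPM. The share of all genes with such a count was not computed. GNAZ was named by a rule that took genes with a large log2FC of HF against CTRL, so the count is no independent result.

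The smooth muscle list itself gave the scale for these slopes. Of its 7 named genes other than ACTA2, 6 were called, from SYNPO2 at 0.57 (standard error 0.14) to MYOCD, a coactivator that drives smooth muscle genes, at 1.0 (standard error 0.17). CALD1 was not called (slope 0.15, edgeR adjusted p = 0.135). The slope of CCKAR, at 1.45, was thus above that of each named smooth muscle marker, with a standard error of 0.25. MCAM had a slope of 0.19 (standard error 0.04, adjusted p = 0.00636), whereas KRT8 and VIM had slopes of −9.53e-05 and −0.01 and were not called. NPEPPS, the 1 named of 16 peptide-cleaving enzymes, had a slope of 0.05 (adjusted p = 0.0502) and was not called in any pair of treatments.

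**Figure D4:**
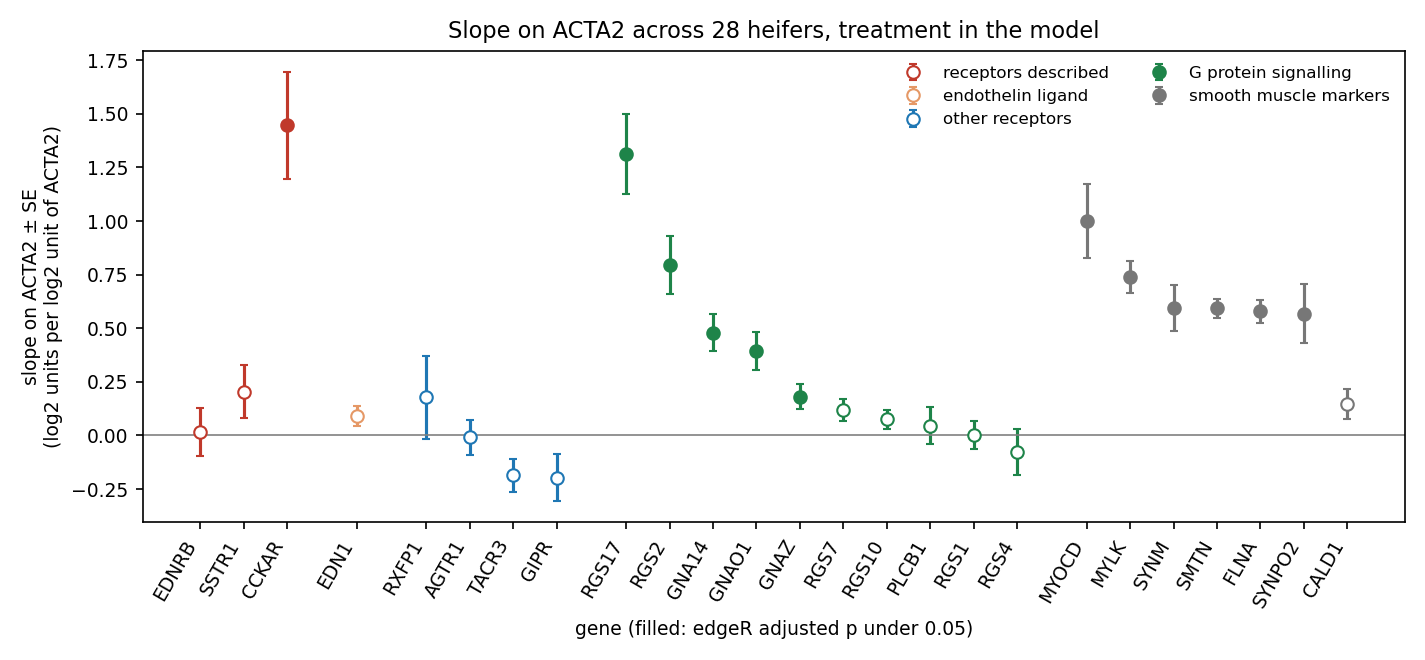
Slope on ACTA2 (y axis, log2 units per log2 unit of ACTA2, with 1 standard error) across 28 heifers with treatment in the model, for the 3 receptors, EDN1, other named peptide receptors, G protein signalling genes and smooth muscle markers (x axis). Filled points have an edgeR adjusted p under 0.05. The estimates of CCKAR (1.45) and RGS17 (1.31) lie above every named smooth muscle marker, with 10 counts or fewer in 13 and 20 of the 28 heifers. Differences between slopes were not tested.

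The genes most like each receptor across heifers were ranked by the correlation of log2 CPM with treatment means subtracted, over 28 heifers and 15162 other genes. For CCKAR, 4 of the 5 highest had a name, SLIT2 (r = 0.890), B3GLCT (0.887), COL4A5 (0.879) and COL4A6 (0.878), and RGS17 (0.868) ranked 7. SLIT2 encodes a secreted guidance protein, B3GLCT a glucosyltransferase, and COL4A5 and COL4A6 chains of basement membrane collagen. RGS17 had 10 counts or fewer in 20 of the 28 heifers and CCKAR in 13, so their correlation rests partly on few counts. ACTA2 ranked 196 in this list, so many genes were closer to CCKAR than the actin was.

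For EDNRB the highest was an ID without a name, ENSBTAG00000007981 (r = 0.771), and ADAMTS1, a secreted protease of the extracellular matrix, was second (r = 0.704). The other 3 of the 5 highest had no name. Among lower ranks, ALOX12, a lipoxygenase, was at r = 0.677 (rank 6), COL4A1 at 0.668 (rank 11), SH3GLB1 at 0.655 (rank 13) and COL4A2 at 0.639 (rank 19), genes given here because they had names and chosen after their ranks were seen. COL4A1 and COL4A2 encode the most common chains of basement membrane collagen. Without CTRL5 and LF2 the correlations were 0.716 for ADAMTS1, 0.566 for ALOX12, 0.544 for COL4A1 and 0.531 for COL4A2. ADAMTS1 alone of these 4 kept its value without that pair of heifers.

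For SSTR1, LRRC3, a membrane protein with leucine-rich repeats, ranked 3 (r = 0.767), and the other 4 of the 5 highest had no name. EML6 (0.676), RBM18 (0.669), ALOX12 (0.666) and RWDD4 (0.664) followed at ranks 45 to 67. ALOX12 was thus among the 5 closest named genes of both EDNRB and SSTR1, which ranked 316 and 890 in each other's lists. With few counts of SSTR1 in each heifer, its correlations carry a large counting error.

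Study replicate and breed were compared with treatment in the model, as the study ran in 2 replicates that held different heifers. EDNRB was at a log2FC of −0.00 for study replicate 2 against 1 (standard error 0.27, edgeR adjusted p = 1.0), SSTR1 at 0.16 (standard error 0.37, adjusted p = 0.999) and CCKAR at 0.14 (standard error 1.02, adjusted p = 0.999), beside 2 genes (0.0132%) called of 15163 and 3.35% at an unadjusted p under 0.05. Between Limousin and Charolais crosses, EDNRB was at 0.79 (standard error 0.37, unadjusted p = 0.0440, edgeR adjusted p = 0.831), and it was at 0.15 (standard error 0.25) without CTRL5 and LF2, which are both Limousin crosses. SSTR1 was at 0.37 (standard error 0.47, adjusted p = 0.837) and CCKAR at −1.48 (standard error 1.04, adjusted p = 0.831), beside 0 (0%) called and 5.43% of genes at an unadjusted p under 0.05. CTRL held 1 Charolais cross, so breed and treatment cannot be fully told apart.

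The 2 heifers of a bull, 1 from each study replicate, were not alike in CCKAR. Over the 10 bulls the higher of the 2 heifers was 1.24 to 199 times the lower in CCKAR, with a median of 11.7. The widest pair was LF6 (153 counts) and LF1 (1 count), both inseminated with semen of bull 1. The narrowest was HF2 (3 counts) and HF7 (2 counts) of bull 7. Such ratios rest on few counts, and heifers of different bulls were not compared in this way. In EDNRB the ratio was 1.02 to 6.89 with a median of 1.75, and in SSTR1 1.2 to 3.86 with a median of 1.67. ACTA2 differed 1.09 to 11.1 times within bulls, with a median of 5.38. The widest EDNRB pair was LF2 and LF7 of bull 2, at 36.4 and 5.29 CPM, so the high level of LF2 was not shared by the other heifer of that bull.

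The study's own group of 18 peptide-binding genes, which it chose on these heifers and which holds EDNRB and SSTR1, had 8 named members. Between HF and CTRL edgeR called 0 of all 14885 genes tested, so the lack of a call says nothing about this group. The 6 members besides EDNRB and SSTR1 each had an edgeR unadjusted p under 0.05, beside 16.0% of all genes. EDNRB, SSTR1 and CEMIP had a log2FC below 0. The median log2FC of the 8 was 0.66 for HF against CTRL (−0.02 over all genes tested) and 0.34 for LF against CTRL (0.01 over all genes tested). The group was chosen on these samples and is no independent evidence of its direction. In HF against LF edgeR called 0 of the 8 (1 at an unadjusted p under 0.05, beside 7.92% of all genes), and CEMIP, a protein involved in degrading hyaluronan, was the 1 of them called for a slope on ACTA2 (0.47, standard error 0.15, adjusted p = 0.0451).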

How the data were processed

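RNA of one uterine biopsy from each of 28 heifers was sequenced with a stranded kit. The authors aligned the reads to the bovine genome ARS-UCD1.2, and the values they deposited are whole-number counts per Ensembl gene, not normalized. They are not the counts behind the normalized values of the study's supplement, from which the receptors were named: in 18 heifers only 58.4% to 62.3% of its genes with over 20 counts lay within 10% of those values after scaling by the median ratio. STAR 2.6.1b and Subread 1.6.3 are listed by the submitters' processing notes. The strand setting of the counting was not stated in the sources read, so reads of antisense genes may be included. Of 24596 IDs, 19458 had a count. Names came from the study's tables and 1685 rows of its supplement sorted by p-value, which name 1522 IDs. Treatment came from the labels, and bull, breed and study replicate from the study's list of animals.

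Counts were analysed in R 4.3.3 with edgeR 4.0.16 (TMM, filterByExpr at a minimum count of 10, quasi-likelihood test, Benjamini-Hochberg adjusted p under 0.05) for each pair of treatments alone, and DESeq2 1.42.0 was the other tool. Slopes on ACTA2, study replicate and breed were fitted over all 28 heifers with treatment as a term. A prior count of 2 was added for log2 CPM. The standard error is the size of the log2FC over the square root of its F statistic. Correlations were tested by permutation within treatments, 2-sided, with 100000 resamples, or over all 40320 orders of the 8 CTRL heifers. The edgeR, DESeq2 and slope fits were tested on simulated data. Depth was 14872812 to 25633259 counts per heifer, and low counts limit SSTR1 and CCKAR. Every 2 heifers of a treatment differed by more than sampling noise (chi-square per degree of freedom at least 16.4).

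The receptors, gene lists and tests were chosen with earlier results of these data known. Named besides the receptors and ACTA2 were all named genes of the endothelin, somatostatin and cholecystokinin lists, up to 4 genes each of the other receptor, G protein and peptide-cleaving lists with the largest log2FC of HF against CTRL at a mean of at least 1 CPM, and the 5 genes most correlated with each receptor. Other genes named, such as cell type markers, fall outside this rule and were chosen after their values were seen. Alternatives were another normalization, no filter, DESeq2, all heifers in one fit, covariates, bulls summed, single study replicates and each heifer left out. No sequence is shown, since none of the files used holds one.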

Additional observations from a re-analysis of the deposited data

Results flagged for a closer look

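A value far from the others of its treatment was looked for in EDNRB, SSTR1, CCKAR and ACTA2 by Dixon's ratio, the gap to the nearest heifer over the whole range, in 12 groups of heifers. It was above the 95% critical value 3 times, where chance flags about 1 group in 20. EDNRB was at 36.4 CPM in LF2 (ratio 0.670), EDNRB at 73.7 CPM in CTRL5 (ratio 0.840) and CCKAR at 8.95 CPM in LF6 (ratio 0.660). The ratio was taken on CPM, and skewed levels raise it more than log levels would. Why these heifers stood apart was not tested.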

How the results depend on the processing

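The 3 receptors kept their direction in all fits with other tools, normalizations, filters and covariates, with these exceptions. CCKAR turned to 0.78 for HF against CTRL with ACTA2 as a covariate, to −1.47 for HF against LF within study replicate 2, and to −0.31 for study replicate 2 against 1 with ACTA2 as a covariate. EDNRB for HF against CTRL was −0.50 within study replicate 1 and −2.29 within replicate 2, and its study replicate difference was 0.00208 with DESeq2 size factors. The slope of EDNRB on ACTA2 was −0.0366 on the mean of the smooth muscle markers and −0.17 within LF heifers. In fits without the filter on low counts, added after seeing the data because the filter dropped SSTR1 and CCKAR within single treatments, the slope within LF was −0.16 for EDNRB and 0.92 for CCKAR (edgeR adjusted p = 0.521), that of CCKAR within CTRL was 2.07 (adjusted p = 0.0749), and that of SSTR1 within HF was −0.00381. The cause of these changes was not tested, and fits within single treatments or study replicates also held fewer heifers.

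DESeq2 called 328 genes for HF against CTRL, 2 for LF against CTRL and 27 for HF against LF, where edgeR called 0, and 2677 for the slope on ACTA2, where edgeR called 1712. The mean of the smooth muscle markers gave 578 slopes, and single treatments gave 181 in HF, 36 in LF and 82 in CTRL. With 1 heifer left out, edgeR called 0 to 91 genes for HF against CTRL (91 without CTRL2) and 875 to 2984 slopes (875 without HF5, 2984 without LF10). The log2FC of HF against CTRL was then −1.58 to −0.84 for EDNRB, −1.92 to −1.31 for SSTR1 and −2.23 to −1.28 for CCKAR. For LF against CTRL it was −1.22 to −0.23 for EDNRB, −1.27 to −0.65 for SSTR1 and −3.74 to −2.38 for CCKAR, and for HF against LF −0.75 to −0.26 for EDNRB, −0.86 to −0.47 for SSTR1 and 0.54 (without HF3) to 2.05 (without LF6) for CCKAR. The slope of EDNRB was −0.0236 to 0.14 and that of SSTR1 0.12 to 0.25.

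The replicate numbers of the labels mark no shared animal, although HF and LF heifers of the same number belong to the same study replicate. The deviations of heifers with the same number correlated at over 0.1 for 5 of 8 HF and CTRL pairs, 4 of 8 LF and CTRL pairs and 5 of 10 HF and LF pairs, so the numbers were not taken as pairs. With the replicate block the log2FC of HF against CTRL was −1.16 for EDNRB, −1.41 for SSTR1 and −1.81 for CCKAR. The block reversed no receptor in any pair of treatments.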
